A study of Drosophila melanogaster with 6 samples.

Results

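The dosage compensation complex of Drosophila melanogaster was described in single-cell RNA-seq data from dissociated brains through 7 genes, taken by symbol from the 22064 features of the deposited matrices. They are the noncoding RNA genes lncRNA:roX1 and lncRNA:roX2 and the protein genes msl-1, msl-2, msl-3, mle and mof. The study compared 3 control libraries, genotype elav-GAL4(x)/+, with 3 libraries of the tau P251L knock-in, whose genotype label reads elav-tau P251L KI. The labels also call the controls wild type, and do not say whether the knock-in flies carried elav-GAL4. elav-GAL4 is a driver transgene expressed in neurons, and the knock-in changes an amino acid of Tau, the microtubule-associated protein. Each library pooled 20 male and 20 female brains, dissociated with trypsin and made into 3' droplet libraries, so each library is a pool of both sexes. Fly age, the construction of the knock-in and the sex of a cell are not stated in the sources used here, and nothing states that the libraries of a group came from separate crosses, so the p-values measure the spread between these libraries.

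Male flies carry a single X chromosome, and dosage compensation raises its transcription toward that of the female pair. The male-specific lethal complex does this by binding the male X and acetylating its chromatin. The roX RNAs are made from the X itself, are parts of the complex and are abundant in male somatic cells, while in females the RNA-binding protein Sex lethal (Sxl) blocks production of the MSL-2 protein, so that the complex does not form. MSL-1 is the scaffold of the complex, MSL-2 a RING-finger protein that binds DNA and limits assembly to males, MSL-3 a chromodomain protein, MLE an RNA helicase that remodels roX RNA, and MOF the histone acetyltransferase, which also serves the NSL complex in both sexes.

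In the Ensembl annotation of BDGP6.54, matched by gene identifier, roX1 (FBgn0019661) lies at X:3857230-3862697 on the minus strand and roX2 (FBgn0019660) at X:11579065-11580432 on the plus strand. Of the protein genes, mof (FBgn0014340) is also X-linked, at X:5873840-5876853. The genes msl-1 (FBgn0005617) and msl-2 (FBgn0005616) lie on 2L, at 2L:18683720-18688800 and 2L:3462218-3466112, msl-3 (FBgn0002775) at 3L:7123213-7125533 and mle (FBgn0002774) at 2R:5974857-5980778, all on the minus strand. The whole gene span is given, with its exons, introns and UTRs. The annotation places ec on the other strand across roX1 and form3 on the other strand across msl-3, and transposon insertions inside roX1, msl-2 and mof. The strand setting of the counting is not stated, so reads of such overlapping features cannot be told apart.

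The libraries held 22026339, 103683860 and 26732897 unique molecular identifiers (UMIs) in control replicates 1 to 3, while knock-in replicates 1 to 3 gave 114599045, 95770658 and 37984526. Barcodes with at least 2000 UMIs, on which the results rest, numbered 1983, 15368 and 2683 among controls, against 17573, 13286 and 4621 among knock-in libraries, 55514 in all. No pair of libraries shared over 80 of these barcode sequences. The libraries were not alike. By a doublet score, 37.4% of the barcodes with little roX RNA and 45.3% of those with much in knock-in replicate 2 scored as doublets, against 5.73% to 23.3% in the other libraries. The number scored as doublets was set by a library's called barcodes, 28447 in knock-in replicate 2 against 6621 to 21235 elsewhere. These shares therefore do not measure a difference in doublet rate between libraries. Knock-in replicate 3 stood apart in tau itself, at 68.1 UMIs per 1000000 UMIs (CPM) against 254 to 341 in the other 5 libraries, and a 3' count does not check the amino acid change. It also had almost no asRNA:CR44429, unlike the other knock-in libraries, so whether its genotype or background matches its label is in doubt. It is kept as labelled, and knock-in values are also given without it.

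Both roX RNAs were found in every library. Over all barcodes, roX1 gave 42968, 472648 and 68799 UMIs among controls, against 340132, 262649 and 97699 among knock-in libraries. For roX2 the sums were 12031, 106197 and 16951 UMIs among controls, against 78732, 97173 and 19700 among knock-in libraries. The protein genes were sparse. Their sums ran from 1677 to 9856 UMIs per library for mle, 876 to 5457 for msl-1, 345 to 1946 for msl-2, 178 to 983 for msl-3 and 148 to 860 for mof. A msl-2 UMI was present in 5.55% to 9.13% of barcodes of at least 2000 UMIs, so the protein genes were compared as sums over barcodes and not barcode by barcode.

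Most single barcodes either had much roX RNA or almost none. The rule for the classes, fixed with these data known, called a barcode roX-high when roX1 and roX2 together made up at least 0.3% of its UMIs and roX-low when they made up at most 0.1%. By that rule 31683 barcodes were roX-high, 20426 were roX-low and 3405 lay between the limits. Within the roX-high class the median roX share was 0.598%, 0.883% and 0.998% of UMIs in control replicates 1 to 3, while knock-in replicates 1 to 3 gave 0.759%, 0.612% and 0.919%. In the roX-low class the median was 0 in every library, and 57.0% to 91.5% of roX-low barcodes had no roX UMI at all. These shares chose the classes and are given as a description. No label gives the sex of a barcode, so the classes are named by their roX RNA alone.

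**Figure D1:**
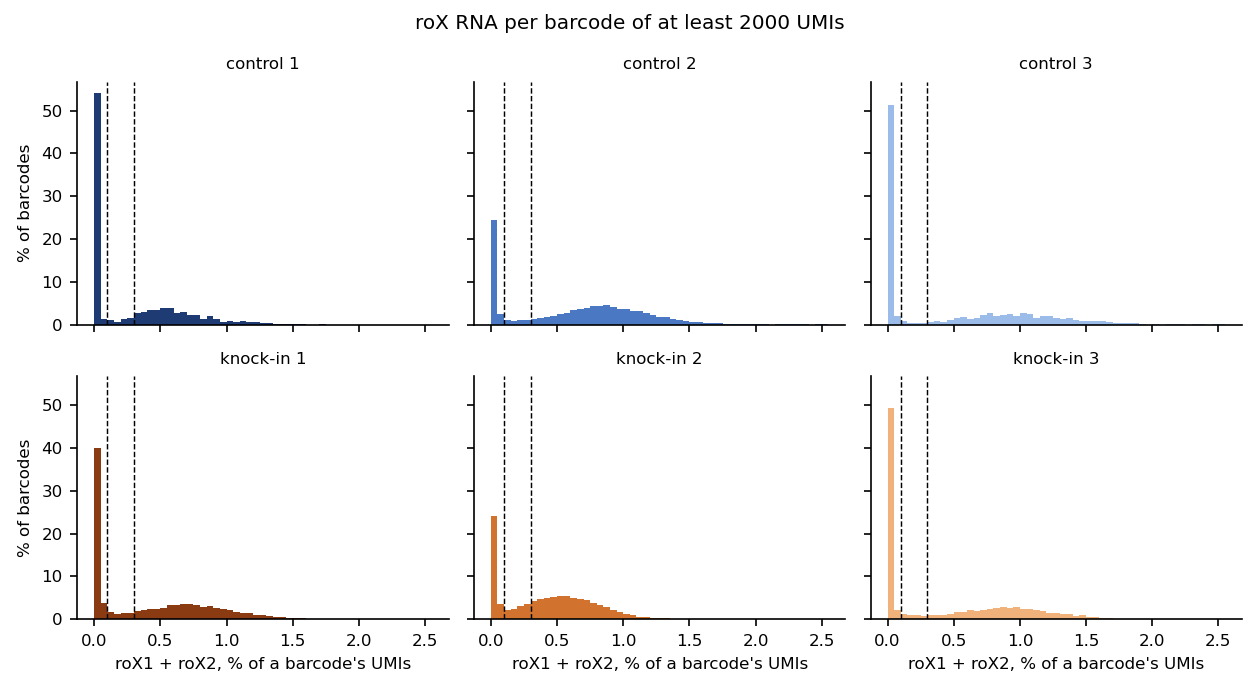
Each panel shows, for 1 library, the percent of barcodes of at least 2000 UMIs (vertical axis) by the share of the barcode's UMIs from roX1 and roX2 (horizontal axis, percent, in bins of 0.05, with the last bin holding all higher values). Dashed lines mark the limits of 0.1% and 0.3%, and 1.98% to 11.1% of barcodes fall between them.

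Few barcodes lay near the limits outside knock-in replicate 2. In the bins just inside, the share of barcodes at 0.3% to 0.35% roX RNA was 0.559% to 4.24% and the share at 0.05% to 0.1% was 1.31% to 3.85%. Just outside, 0.41% to 3.5% of barcodes had 0.25% to 0.3% roX RNA, and 0.82% to 2.17% had 0.1% to 0.15%. In knock-in replicate 2 the share rose from 2.98% at 0.2% to 0.25% roX RNA to 4.59% at 0.35% to 0.4%. Over the same bins it also rose elsewhere, at lower shares. It went from 1.21% to 2.98%, 0.95% to 1.49% and 0.335% to 0.745% in control replicates 1 to 3. In knock-in replicate 1 it went from 1.31% to 2.15%, and in knock-in replicate 3 from 0.887% to 0.974%. With limits of 0.5% and 0.05%, 6.9% to 33.4% of barcodes by library lay between them. The roX-high share was then 42.6% in knock-in replicate 2 and 27.5% in control replicate 1, against 61.3% and 40.1% by the rule. Knock-in replicate 2 had the largest share between the limits, 11.1% against 1.98% to 5.62% elsewhere. Of those barcodes 59.3% scored as doublets, against 16.3% to 38.6% in the other libraries, where the rule for doublets allowed fewer per called barcode. The part of doublets in this share was not tested.

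The level in each class was far apart for both RNAs. roX1 ran from 4689 to 7591 CPM in roX-high sums and from 30.7 to 156 CPM in roX-low sums. roX2 ran from 1251 to 1854 CPM and from 7.81 to 46.1 CPM. Free RNA was measured in near-empty barcodes of 30 to 300 UMIs, where roX1 was at 505 to 1203 CPM and roX2 at 93.6 to 302 CPM. Both were thus lower in roX-low barcodes than in near-empty barcodes in the range over libraries. The classes had like depth, with median UMIs of 2743 to 3570 in roX-high and 2743 to 3270 in roX-low barcodes.

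The share of roX-high barcodes varied as much within a genotype as between genotypes. It was 40.1%, 68.9% and 44.6% in control replicates 1 to 3, while knock-in replicates 1 to 3 gave 50.6%, 61.3% and 44.8%. Control replicate 2 was highest and control replicate 1 lowest, so the groups overlapped. The means were 51.2% ± 15.5 in controls and 52.2% ± 8.41 in knock-in libraries (SD, n = 3 each), and these differed by 1.06 percentage points (two-sided exact permutation p = 0.9, where 0.1 is the smallest p that 3 against 3 libraries allow). Leaving out control replicate 2 moved the difference to 9.9 points (exact p = 0.2) and leaving out control replicate 1 turned it to -4.49 points (exact p = 0.8). Without knock-in replicate 3 it was 4.8 points (exact p = 0.8). Each library's share is precise against counting error, for example 38.0% to 42.3% in control replicate 1 (95% Wilson interval, counting error only), which is small beside the spread over libraries.

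Each roX RNA was higher in the barcodes that the other chose. To leave each RNA out of the choice, barcodes were split by the other alone, at least 0.1% against at most 0.03% of UMIs. Where roX1 made the split, roX2 was at 1158, 1509 and 1783 CPM in the high barcodes of control replicates 1 to 3 and at 1288, 1401 and 1253 CPM in those of knock-in replicates 1 to 3. In the low barcodes it was at 6.31, 23.4 and 11.5 CPM among controls, against 22.3, 44.6 and 8.8 CPM among knock-in libraries. roX2 was 31.4- to 184-fold higher in the high barcodes, in 6 of 6 libraries, with a mean difference of 6.46 on the log2 scale (two-sided exact paired permutation p = 0.031, the smallest that 6 pairs allow).

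The reverse split gave a smaller ratio. Where roX2 made the split, roX1 was at 5007, 7307 and 7790 CPM in the high barcodes of the controls and 6265, 4441 and 7696 CPM in those of the knock-in libraries. In the low barcodes roX1 was still at 707, 1837 and 773 CPM among controls, against 1141, 1260 and 1307 CPM among knock-in libraries. The mean difference was 2.5 on the log2 scale, higher in 6 of 6 libraries, with folds of 3.52 to 10.1 (two-sided exact paired permutation p = 0.031).

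With each barcode thinned to 2000 UMIs, both RNAs were present in 34.2% to 61.8% of barcodes and neither in 18.7% to 51.8%. roX1 without roX2 was seen in 13.2% to 20.2% of barcodes, and roX2 without roX1 in 0.706% to 2.0%. In barcodes with no roX1 UMI, roX2 was seen in 1.34% to 9.65%, and in barcodes with at least 5 roX1 UMIs in 76.9% to 87.0%. Among roX-high barcodes, the number of roX1 UMIs per roX2 UMI was 4.09, 4.44 and 4.09 among controls, against 4.37, 3.01 and 5.49 among knock-in libraries, lowest in knock-in replicate 2 and highest in knock-in replicate 3.

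Of the protein members, msl-2 was higher in roX-high than in roX-low barcodes and the other 4 did not pass the test. The test was edgeR's quasi-likelihood test on sums per library and class with the library as a block, Benjamini-Hochberg adjusted over 8857 features, at an adjusted p under 0.05. Of all features tested, 258 passed in either direction, 2.91%, and 1.28% passed as higher in roX-high barcodes. Of the 5 protein genes 1 passed, and their median log2 difference was 0.086 against 0.002 over all features tested. All 5 passed the filter on low counts, and roX1 and roX2, which define the classes, were taken out of the table.

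In roX-high barcodes msl-2, the subunit whose protein Sxl represses in females, was at 20.1, 21.9 and 21.7 CPM in control replicates 1 to 3, while knock-in replicates 1 to 3 gave 20.8, 24.3 and 30.1 CPM. In roX-low barcodes it was at 14.3, 15.7 and 16.5 CPM among controls, against 16.6, 20.5 and 20.9 CPM among knock-in libraries. The value was higher in roX-high barcodes in 6 of 6 libraries, a direction shared by 5.94% of features tested, while the ranges over libraries overlapped, since knock-in replicates 2 and 3 were above the others in both classes. The log2 difference was 0.40 (SE 0.05, 1.32-fold, edgeR adjusted p = 0.00703). Within neuron-like cells it was 0.39 (adjusted p = 0.00103). Without control replicate 2 it was 0.39 with an adjusted p of 0.051, and with barcodes of at least 4000 UMIs it was 0.45 with an adjusted p of 0.0601. Without knock-in replicate 3 the difference was 0.38 (adjusted p = 0.031), and over all 14 alternatives it ran from 0.33 to 0.45. In near-empty barcodes msl-2 was at 4.54 to 10.9 CPM. After thinning to 2000 UMIs, a msl-2 UMI was seen in 3.4% to 5.75% of roX-high and 2.91% to 3.7% of roX-low barcodes.

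For mle, the helicase, the sums were 86.3, 101 and 98.7 CPM in roX-high barcodes of the controls and 96.2, 102 and 90.2 CPM in those of the knock-in libraries. The roX-low sums of mle were 79.4, 87.1 and 93.6 CPM among controls, against 98.3, 93.6 and 89.3 CPM among knock-in libraries, so the classes overlapped, with 5 of 6 libraries higher in roX-high barcodes (log2 difference 0.09, SE 0.04, edgeR adjusted p = 0.283). The acetyltransferase gene mof had means of 8.71 ± 0.886 CPM in roX-high and 7.85 ± 1.3 CPM in roX-low sums (SD, n = 6 each) and a log2 difference of 0.17 (SE 0.08, edgeR adjusted p = 0.335). The scaffold gene msl-1 was at 53.0 ± 7.86 and 50.9 ± 10.0 CPM, with a log2 difference of 0.06 (SE 0.05, edgeR adjusted p = 0.64). The chromodomain gene msl-3 was at 9.73 ± 2.91 and 10.3 ± 2.45 CPM, with a log2 difference of -0.01 (SE 0.11, edgeR adjusted p = 0.999). A p that misses the threshold does not show equal levels, and the msl-3 value in particular has a wide error, since its roX-high sums rested on 20 to 440 UMIs.

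**Figure D2:**
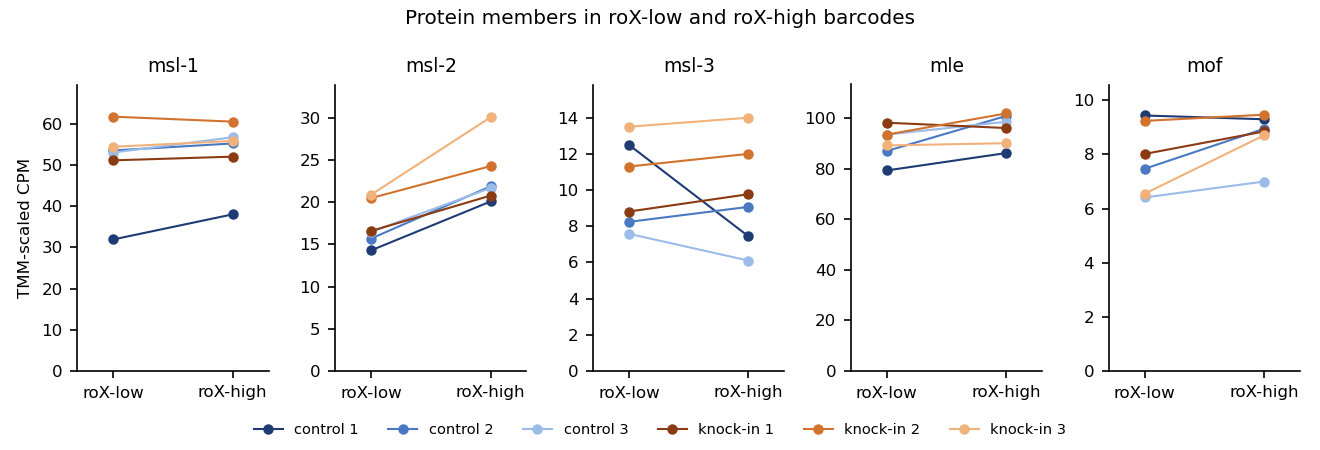
CPM scaled by TMM factors (vertical axis, from 0 in each panel) of the 5 protein members in roX-low and roX-high barcodes, with 1 line per library. All 6 lines of msl-2 rise, by 1.32-fold in the fit, while msl-1, mle and mof are higher in roX-high barcodes in 5 of 6 libraries each and msl-3 in 4 of 6.

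The sex determination pathway, in which Sxl acts, was described from a list of 13 genes, of which 1 passed as higher and 2 as lower. The median log2 difference of the list was 0.029, against 0.002 over all features tested. Sxl, the switch gene that represses msl-2 translation, was lower in roX-high barcodes in 6 of 6 libraries, as were 6.12% of features tested, with 510 to 836 CPM (mean 662 ± 104, SD) in roX-high and 885 to 1390 CPM (mean 1116 ± 163) in roX-low sums. The ranges did not overlap, which held for 0.531% of features tested. Its log2 difference was -0.76 (SE 0.02, edgeR adjusted p = 2.98e-06), the smallest p of any feature, and it passed in all 14 alternatives, at -0.85 to -0.69. Sxl is itself X-linked.

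The other sex determination genes that passed act at the end of the pathway. dsx, whose sex-specific proteins direct somatic sexual differentiation, was higher in roX-high barcodes, at 6.27 ± 2.24 CPM against 3.0 ± 1.64 CPM (SD, n = 6 each; log2 difference 1.11, SE 0.21, edgeR adjusted p = 0.0318). fru, which controls male courtship circuits, was lower, at 386 ± 45.8 CPM against 641 ± 269 CPM (log2 difference -0.66, SE 0.13, edgeR adjusted p = 0.0404). Both calls were lost in 4 of the 6 fits that left out a library, all but the fits lacking control replicate 1 and knock-in replicate 3 (highest adjusted p 0.114 for dsx and 0.146 for fru). With barcodes of at least 4000 UMIs the adjusted p was 0.301 for dsx and 0.392 for fru, and with doublets and high mitochondrial shares removed it was 0.0565 for dsx. The deposited matrices hold 1 count per gene and barcode, so the sex-specific splice forms of Sxl, tra, dsx and fru were not separated. Of the 10 that did not pass, snf, a splicing factor that works with Sxl, was at a log2 difference of -0.22 (edgeR adjusted p = 0.0641) and tra, a direct splicing target of Sxl, at -0.20 (edgeR adjusted p = 0.139), each lower in 6 of 6 libraries. ix, which encodes a partner of the female Dsx protein, and her were on the other side, at 0.22 (edgeR adjusted p = 0.173) and 0.11 (edgeR adjusted p = 0.261), each higher in 5 of 6 libraries.

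Factors known to recruit, assist or restrain the complex did not pass. Of 13 listed, 0 passed in edgeR at an adjusted p under 0.05, 3 had an unadjusted p under 0.05 (Hrb27C, Nup153 and Set2) and 1, Nup153, passed in DESeq2, with a median log2 difference of 0.019. Clamp, the zinc-finger protein that brings the complex to the X, was at 64.7 ± 7.51 CPM in roX-high and 63.5 ± 9.51 CPM in roX-low sums (SD, n = 6 each; log2 difference 0.03, SE 0.04). Unr, the partner of Sxl in msl-2 repression, was at 1775 ± 208 and 1755 ± 207 CPM (log2 difference 0.02, SE 0.02). JIL-1, a histone kinase enriched on the male X, was at 179 ± 11.2 and 176 ± 13.0 CPM (log2 difference 0.03, SE 0.03). The X-linked members Nup153, a nuclear pore protein (log2 difference -0.12, edgeR adjusted p = 0.0634), and Set2, a histone methyltransferase (log2 difference -0.12, edgeR adjusted p = 0.178), were each lower in 6 of 6 libraries. Hrb27C, an RNA-binding protein that assists Sxl on msl-2 RNA, was higher in 6 of 6 libraries, at a log2 difference of 0.06 (edgeR adjusted p = 0.218). The 8 NSL complex genes and the 3 other MYST acetyltransferases also gave 0 calls in edgeR and in DESeq2 and 0 at an unadjusted p under 0.05, with medians of 0.003 and -0.022.

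Yolk protein and Y-linked genes were listed as further sex-related genes. The X-linked Yp1, Yp2 and Yp3, made in the female fat body, had log2 differences of -1.48, -1.40 and -1.38 in roX-high barcodes and did not pass (edgeR adjusted p = 0.269, 0.235 and 0.215). Their spread was wide, with Yp1 at 2.91 to 5900 CPM over the roX-low sums. No Y-linked protein gene passed the filter on low counts. The 12 listed gave 12 UMIs among 129724833 in roX-high and 2 UMIs among 79462978 in roX-low barcodes, too few to compare.

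With roX1 and roX2 left out, features that differed between the classes were often X-linked. Of 1502 X-linked features tested, 80 passed as higher and 107 as lower in roX-high barcodes, 12.5% of those tested there. Of 7104 on 2L, 2R, 3L and 3R, 30 passed as higher and 37 as lower, 0.943%. The X thus gave 72.5% of the calls from 17.0% of the features tested. The fourth chromosome gave 2 higher and 1 lower of 209. The median log2 difference was -0.049 on the X, 0.008 on 2L, 2R, 3L and 3R and 0.042 on the fourth, under TMM scaling, which another scaling moved by 0.0033. These are descriptions by chromosome, and the genes of a chromosome are not independent replicates.

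**Figure D3:**
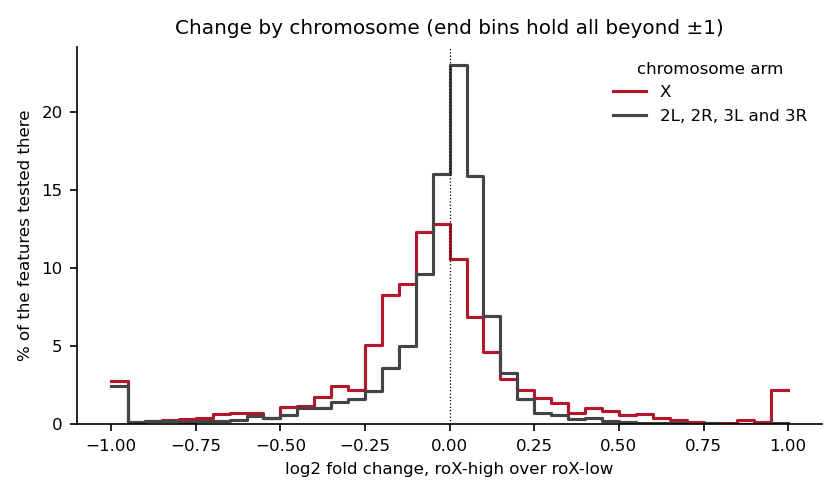
Percent of the features tested on the X (red) and on 2L, 2R, 3L and 3R (grey) by log2 fold change of roX-high over roX-low barcodes, in bins of 0.05 with the end bins holding all values beyond 1 in either direction. The X-linked curve is broader and centred at -0.049, and the autosomal curve at 0.008.

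As a share of UMIs, the X was slightly lower in roX-high barcodes. X-linked genes without roX1 and roX2 made up 17.1%, 17.2% and 16.6% of the UMIs of X and autosomes in roX-high barcodes of control replicates 1 to 3 and 16.8%, 16.8% and 17.7% in those of knock-in replicates 1 to 3. The roX-low barcodes had 19.2%, 18.4% and 18.6% among controls, against 17.7%, 17.4% and 19.1% among knock-in libraries. It was lower in roX-high barcodes in 6 of 6 libraries, by 1.37 percentage points on average, -2.11 to -0.635 by library (two-sided exact paired permutation p = 0.031, the smallest that 6 pairs allow). With Yp1, Yp2 and Yp3 also left out, the difference was -1.05 points. In neuron-like cells without those genes it was -0.886 points, from -1.3 to -0.564, in 6 of 6 libraries (exact paired p = 0.031). Both of the alternatives without Yp genes were chosen after seeing the data.

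The calls depended on the libraries used. Leaving out control replicate 2 left 89 calls, of which the X held 83.1%, and leaving out control replicate 1 gave 425 calls, of which the X held 60.2%. Without the filter on low counts the X held 49.0% of 480 calls and 2L, 2R, 3L and 3R held 49.8%, so that the X did not hold most of them there. The count was 159 without control replicate 3 and 116, 131 and 132 without knock-in replicates 1, 2 and 3. The X-linked median stayed between -0.050 and -0.034 under all 14 alternatives. In neuron-like cells alone, 480 features passed, and the X held 120 of the higher and 228 of the lower calls.

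By the naming rule the 10 largest increases in roX-high barcodes included 8 X-linked genes. They were chosen from 202 features with an adjusted p under 0.05, at least 5 CPM and the same sign in 6 of 6 libraries. Muc14A (X:16009114-16061722), a mucin gene, was at 46.4 to 134 CPM in roX-high and 3.64 to 21.6 CPM in roX-low sums, a log2 difference of 3.26 (SE 0.17, edgeR adjusted p = 0.000147). Axs, a transmembrane protein of the meiotic spindle, was at 11 ± 1.9 against 3.98 ± 1.17 CPM (SD, n = 6 each; log2 difference 1.48). The antisense RNA genes asRNA:CR45479 and asRNA:CR44841 had log2 differences of 1.34 and 1.27, and overlap Cyp4d14 and S6KL, from which their reads cannot be told apart without strand. mthl1, a receptor of the methuselah family, rose by 1.01, Hr4, a nuclear receptor, by 0.87, Cht11, a chitinase-like gene, by 0.86 and CG2124 by 0.86 on the log2 scale. Axs, mthl1, Hr4 and CG2124 also overlap genes on the other strand, with the same limit. The autosomal pair were RNaseP:RNA, the RNA of ribonuclease P, which lies within ATPsynC on the same strand, at 1.19, and lncRNA:cherub, at 0.91. Of these 10, the Cht11 call alone was lost when a library was left out (highest adjusted p 0.0727, without control replicates 2 or 3 or knock-in replicates 1 or 2). With barcodes of at least 4000 UMIs the RNaseP:RNA call was lost as well (adjusted p = 0.102).

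The 10 largest decreases held 3 X-linked genes. lncRNA:CR45668 was at 6.18 ± 0.761 CPM in roX-high and 14.8 ± 3.85 CPM in roX-low sums (SD, n = 6 each; log2 difference -1.23, edgeR adjusted p = 0.00194), and lncRNA:CR43264 at 8.97 ± 2.38 and 18.9 ± 5.92 CPM (log2 difference -1.08, edgeR adjusted p = 0.000382). Both lie near mof on the X, at X:5882480-5899989 and X:5831898-5832215. On the other strand they overlap CG16721 and CG15765, from which their reads cannot be told apart without strand. regucalcin, the third, was at -1.33. Its roX-low sum was at 59.1 CPM in control replicate 3, against 8.44 to 18.2 CPM in the other libraries. AstA, a neuropeptide gene, was at 96.8 ± 51.6 against 183 ± 98.7 CPM (log2 difference -0.90, edgeR adjusted p = 0.00872). In neuron-like cells the log2 differences of lncRNA:CR45668, lncRNA:CR43264 and AstA were -1.44, -0.95 and -0.90, while that of regucalcin was smaller, at -0.59. With barcodes of at least 4000 UMIs the AstA call was lost (adjusted p = 0.339).

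The remaining decreases were Ppn at -2.26, nAChRbeta3 at -1.89, CG4250 at -1.89, CG5080 at -1.58, CG4797 at -1.13 and CG5399 at -0.90 on the log2 scale. Genes on the other strand overlap nAChRbeta3, CG4797 and also regucalcin, with the same limit on their reads. The level of CG5399 came mostly from control replicate 3, at 200 CPM in roX-high and 295 CPM in roX-low sums. In the other libraries CG5399 was at 0.314 to 1.12 CPM in roX-high and 0.986 to 5.87 CPM in roX-low sums. Its means of 34.0 and 51.1 CPM thus do not describe those libraries. Ppn is a hemocyte marker and CG4797 a surface glia marker in the lists used here. In neuron-like cells Ppn was at -0.02, nAChRbeta3 at -0.24, CG4250 at -0.61 and CG5080 at 0.01, and CG4797 and CG5399 did not pass the filter. With barcodes of at least 4000 UMIs the adjusted p of nAChRbeta3 was 0.0521. When a library was left out, the calls of Ppn, CG4250, CG5080, regucalcin, CG4797 and CG5399 were lost at least once (highest adjusted p 0.168, each without control replicate 2 and, but for Ppn, others).

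Summed markers of some other cell types were lower in roX-high barcodes. The summed level of the 7 hemocyte markers was 67.6 to 90.5 CPM in roX-high and 69.6 to 160 CPM in roX-low sums, lower in roX-high barcodes in 6 of 6 libraries. Of the 3 tested, Hml and Ppn passed as lower, while Pxn, which made up most of the sum, was at 76.1 against 72.1 CPM, higher in 5 of 6 libraries (log2 difference 0.08, edgeR adjusted p = 0.384). The 8 fat body markers summed to 137 to 1850 CPM against 164 to 21033 CPM, also lower in 6 of 6 libraries. Of the 7 tested, 0 passed in edgeR, 5 had an unadjusted p under 0.05 (FASN1, apolpp, Yp1, Yp2 and Yp3) and 2 passed in DESeq2 (FASN1 and apolpp). The 4 cortex glia markers summed to 29.1 to 68.3 CPM against 48.4 to 81.9 CPM, lower in 6 of 6 libraries, with hoe1 passing as lower. hoe1 was also at 22.1 CPM in neuron-like and 80.9 CPM in Kenyon-like cells. The 5 surface glia markers summed to 25.1 to 71.2 CPM against 28.4 to 153 CPM, lower in 5 of 6 libraries, with CG4797 passing. Ensheathing glia sums were lower in 6 libraries, those of glia and astrocyte-like glia in 5. Kenyon cell, monoaminergic and muscle sums were lower in 4 of 6 libraries. No marker of these lists was at 0 in all sums. The part of these cells in the differences was not tested, beyond the neuron-like values given above. The 8 neuron markers summed to 12165 to 14026 CPM in roX-high and 11158 to 13959 CPM in roX-low sums, and the X-linked elav passed as lower at -0.13 on the log2 scale.

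Near the roX genes, 4 of 11 features tested within 100 kb of roX1 passed, with a median log2 difference of -0.029. Crg-1 (log2 difference 2.38), HIP-R (0.31) and CG42541 (0.30) were higher and Tlk (-0.20) was lower in roX-high barcodes. Despite its value, Crg-1 was not among the largest increases named above. It thus missed the naming rule's minimum of 5 CPM or its same sign in 6 of 6 libraries. Within 100 kb of roX2, 4 of 20 passed, with a median of -0.035. nod (0.75), Kmn1 (0.61) and rho-4 (0.44) were higher and bif (-0.17) was lower. These genes were looked up after their values were seen, the share passing over the whole X was 12.5%, and the difference from it was not tested.

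Between the genotypes 0 of the 7 genes passed the test in edgeR or in DESeq2, and 0 had an unadjusted p under 0.05. The test was run on sums over barcodes of at least 2000 UMIs, adjusted over 10552 features, of which 24 passed, 0.227%, with 0.104% higher and 0.123% lower. roX1 was at 1870, 4880 and 3510 CPM in control replicates 1 to 3, while knock-in replicates 1 to 3 gave 3370, 3340 and 3490 CPM, so that the knock-in values lay inside the range of the controls (log2 difference -0.01, SE 0.32, edgeR adjusted p = 0.994). roX2 was at 460, 1090 and 850 CPM among controls, against 767, 1110 and 633 CPM among knock-in libraries (log2 difference 0.06, SE 0.34, edgeR adjusted p = 0.942). The share of roX-high barcodes was likewise highest in control replicate 2 and lowest in control replicate 1, and its part in these levels was not tested. In such sums, fewer roX-high cells and less roX RNA per cell cannot be told apart. Without knock-in replicate 3, whose genotype is in doubt, 38 features passed, and 0 of the 7 genes, with log2 differences of -0.05 to 0.30 and edgeR adjusted p of 0.627 to 0.965.

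Of the protein genes, msl-3 was at 9.88, 8.82 and 6.85 CPM among controls, against 9.37, 11.8 and 13.7 CPM among knock-in libraries, a log2 difference of 0.45 (SE 0.22, edgeR adjusted p = 0.487). msl-2 was at 16.2, 19.8 and 18.9 CPM among controls, against 19.1, 23.2 and 25 CPM among knock-in libraries (log2 difference 0.29, SE 0.16, edgeR adjusted p = 0.516). The groups of both genes overlapped, through knock-in replicate 1. Over all features tested, 18.0% had groups that did not overlap. msl-1 was at 47.1 ± 11.7 CPM in controls and 55.9 ± 5.16 CPM in knock-in libraries (SD, n = 3 each; log2 difference 0.24, SE 0.20, edgeR adjusted p = 0.636). mle was at 90.5 ± 8.68 and 95.6 ± 6.72 CPM (log2 difference 0.08, SE 0.12, edgeR adjusted p = 0.789), and mof at 7.9 ± 1.26 and 8.4 ± 0.996 CPM (log2 difference 0.09, SE 0.21, edgeR adjusted p = 0.863).

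**Figure D4:**
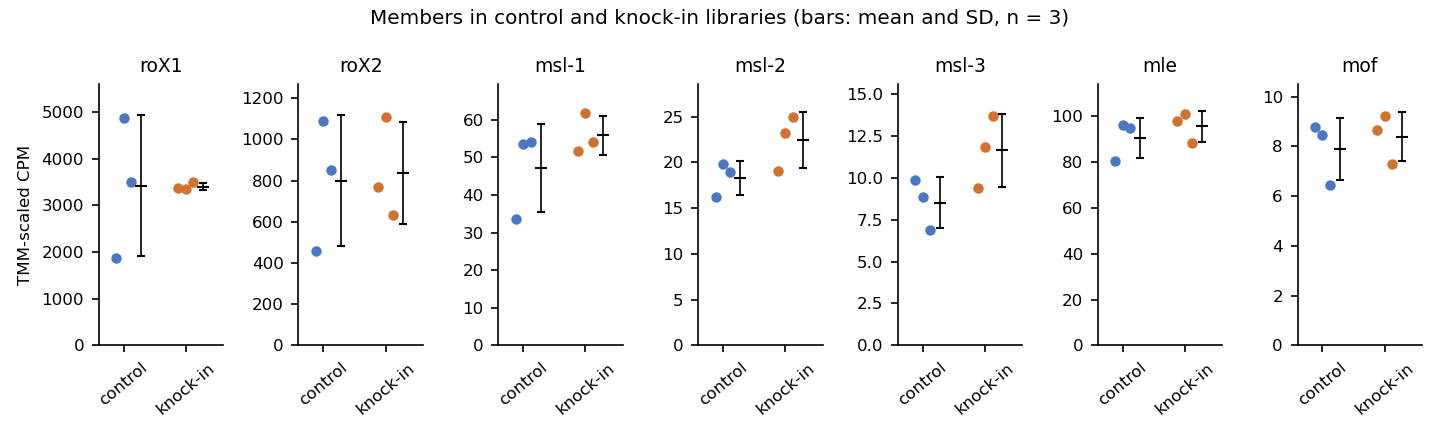
CPM scaled by TMM factors (vertical axes, each from 0) of the 7 members in the 3 control (blue) and 3 knock-in (orange) libraries, with the mean and SD of each group as a bar beside the points. The groups overlap for every member, and control roX1 runs from 1870 to 4880 CPM.

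Within each class the protein members also did not pass. In roX-high barcodes 29 of 9626 features passed between the genotypes, 0.301%, and 0 of the 5 members, of which msl-3 alone had an unadjusted p under 0.05, at a log2 difference of 0.62 (SE 0.23, edgeR adjusted p = 0.525) and msl-2 at 0.23 (edgeR adjusted p = 0.717). In roX-low barcodes 16 of 9065 passed, 0.177%, with 0.0883% in each direction, and again 0 of the members, also at an unadjusted p under 0.05, with msl-2 at 0.32 (SE 0.17, edgeR adjusted p = 0.482) and msl-3 at 0.26 (edgeR adjusted p = 0.695). The difference of the genotype effect between the classes was tested as an interaction over 9573 features, of which 1 passed, 0.0104%. Of the 5 protein members 0 did in edgeR or DESeq2, and 0 had an unadjusted p under 0.05, with edgeR adjusted p from 0.908 to 1.0. The feature that passed is described among the results for a closer look.

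The roX RNAs were also set side by side over cell classes, named from marker genes after clustering without the 7 genes. Of 73566 cells kept, 71012 were neuron-like, 454 glia-like and 252 fat body-like, and the glial marker repo was at 349 CPM in glia-like and 2.69 CPM in neuron-like cells. All values of this comparison are descriptions over libraries with at least 20 cells of the class. roX1 was at 3597 ± 841 CPM in neuron-like cells, 2830 ± 1187 CPM in glia-like cells and 2667 ± 565 CPM in Kenyon-like cells (SD, n = 6 each), which resemble the intrinsic neurons of the mushroom bodies. Within libraries, Kenyon-like cells were below other neuron-like cells in 6 of 6. In 4 libraries with enough fat body-like cells roX1 was at 788 ± 627 CPM, the lowest class mean. Among cells of at least 2000 UMIs, 39.4%, 68.2% and 44.3% of neuron-like cells were roX-high in control replicates 1 to 3, while knock-in replicates 1 to 3 gave 48.9%, 60.7% and 44.5%. For glia-like cells the shares were 22.7%, 62.5% and 39.5% among controls, against 49.5%, 48.4% and 25% among knock-in libraries, on 20 to 95 cells each, and below the neuron-like share in 5 of 6 libraries. The fat body-like share was 34.1% of 44 cells in control replicate 2 and 23.3% of 43 cells in knock-in replicate 1, below the neuron-like share in both, and the other libraries had under 20 such cells.

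For roX2 the order was different. It was at 1346 ± 420 CPM in glia-like cells, 934 ± 363 CPM in Kenyon-like cells and 930 ± 207 CPM in all neuron-like cells (SD, n = 6 each), and higher in glia-like than in neuron-like cells in 5 of 6 libraries, knock-in replicate 3 being the exception. Among neuron-like cells with at least 2 UMIs of a transmitter gene, roX2 was at 617 ± 125 CPM with Gad1 (GABA synthesis), 796 ± 153 CPM with VGlut (glutamate transport) and 1003 ± 252 CPM with VAChT (acetylcholine transport). The ranges over libraries met or overlapped, and the Gad1 group was below the VAChT group in 6 of 6 libraries, at 0.552 to 0.729 of its level, and the VGlut group was between them in 6 of 6. roX1 did not show this order over the 3 groups, with 3405 ± 752, 3608 ± 813 and 3520 ± 945 CPM in the same groups. The Gad1 group was below the VGlut group in 6 of 6 libraries, at 0.911 to 1.0 of its level. Against the VAChT group, roX1 was higher with Gad1 in 2 and with VGlut in 4 of 6 libraries.

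The number of roX1 UMIs per roX2 UMI differed between the classes in the comparisons given here. It was 5.6 ± 1.08 with Gad1, 4.59 ± 0.858 with VGlut, 3.57 ± 0.759 with VAChT, 3.1 ± 0.992 in Kenyon-like and 2.09 ± 0.557 in glia-like cells (SD, n = 6 each). The Gad1 group was above the VAChT group in 6 of 6 libraries, by a factor of 1.39 to 1.68, and neuron-like cells were above glia-like cells in 6 of 6, by a factor of 1.42 to 2.57. Unlike the level of either RNA, this ratio does not count cells that lack both. Glia-like cells were few, with 454 in all, and the neuronal gene elav was at 265 CPM in them against 658 CPM in neuron-like cells, whose part in the glia-like values was not tested.

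**Figure D5:**
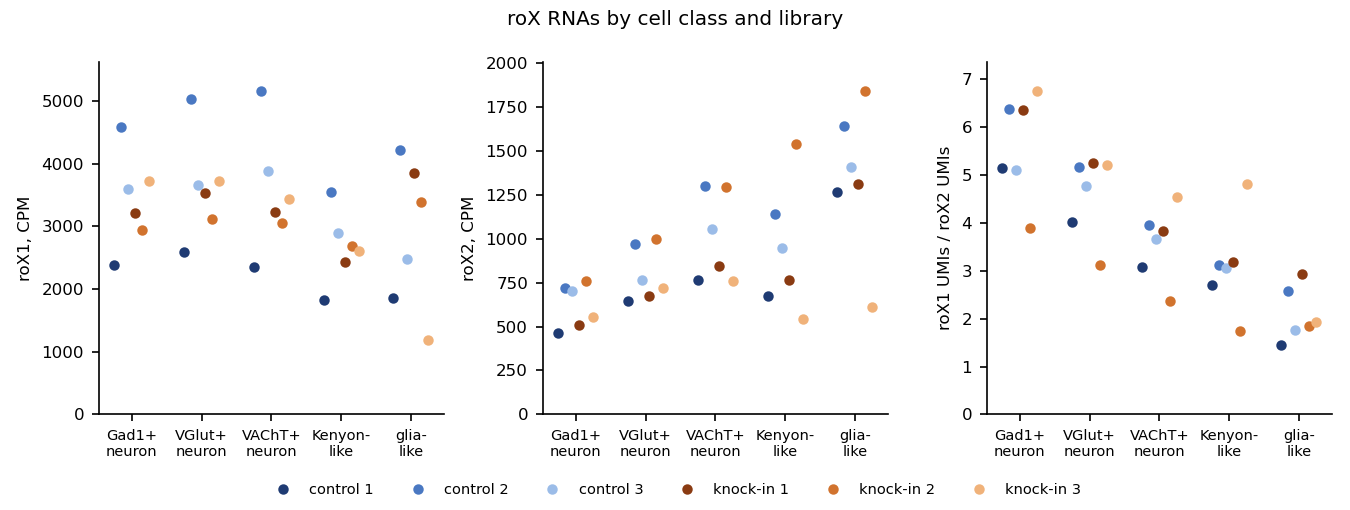
roX1 CPM, roX2 CPM and roX1 UMIs per roX2 UMI (vertical axes, each from 0) in neuron-like cells with Gad1, VGlut or VAChT, Kenyon-like cells and glia-like cells, with 1 point per library. The ratio falls from 5.6 in the Gad1 group to 2.09 in glia-like cells on average, while knock-in replicate 2 has the lowest ratio in all neuron-like cells, 2.62, and knock-in replicate 3 the highest, 4.99.

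Of the protein members, msl-1 and mle were lower in glia-like cells. msl-1 was at 56.0 ± 4.87 CPM in neuron-like and 35.1 ± 5.27 CPM in glia-like cells (SD, n = 6 each), lower in glia-like cells in 6 of 6 libraries, and mle at 96.8 ± 6.6 and 59.4 ± 29.3 CPM, also lower in 6 of 6. The glial sums rested on 51 msl-1 and 89 mle UMIs. The lower mle level did not hold for every glial class. In astrocyte-like cells mle was at 138 ± 38.9 CPM (SD, n = 2 libraries, 25 UMIs over all libraries). In cortex-like cells it was at 66.1 ± 13.8 CPM (SD, n = 5 libraries, 42 UMIs over all libraries). For msl-2 the means were 21.4 ± 2.49 CPM in neuron-like, 17.2 ± 10.5 CPM in glia-like and 14.0 ± 5.08 CPM in Kenyon-like cells. Kenyon-like cells were below other neuron-like cells in 6 of 6 libraries for msl-2 (at 0.282 to 0.846 of their level), msl-1 (0.625 to 0.856) and mof (0.267 to 0.966), while mle was higher in Kenyon-like cells in 3 and msl-3 in 4 of 6 libraries. The lowest msl-2 and mof ratios, both in control replicate 3, rested on 6 and 2 Kenyon-like UMIs. Over all libraries the Kenyon-like sums held 239 msl-2 and 122 mof UMIs. msl-3 (10.4 ± 1.73 CPM) and mof (8.73 ± 1.49 CPM) in neuron-like cells had too few glial UMIs, 13 and 12, to place the glia-like level.

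Over the 40 clusters of at least 200 cells, roX1 varied less than roX2. It ran from 2533 CPM in a Kenyon-like cluster to 4594 CPM in a neuron-like cluster led by tey, 1.81-fold, and roX2 from 414 CPM in a neuron-like cluster led by CG13408 and tj to 1571 CPM in one led by CG9109, 3.8-fold. msl-1 ran from 40.5 to 86.4 CPM, msl-2 from 13.4 to 25.1 CPM and mle from 61.6 to 114 CPM. The lowest values of msl-3 and mof, 1.53 and 4.86 CPM, rested on 1 and 3 UMIs. By Pearson r of log2(CPM + 1) over these clusters, the genes most like roX1 were capu (r = 0.75), CG10075 (r = 0.69) and CG18428 (r = 0.68), and those most like roX2 were kat80 (0.75), myo (0.73) and U2af38 (0.72). For msl-2 they were Usp47, CG13365 and CG6195, each at 0.6, for msl-1 Glut4EF (0.73), E(Pc) (0.72) and rl (0.72), and for mle CG1677 (0.78), CG8878 (0.74) and e(y)3 (0.7). For msl-3 they were CG31715 (0.67), Rpn9 (0.66) and PAPLA1 (0.64), and for mof Drat (0.71), CG11248 (0.7) and Cdk5 (0.67). These are the highest of 4447 candidate genes, the clusters share libraries and differ in depth, and the values are a description.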

How the data were processed

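The authors deposited raw counts of UMIs per gene and barcode, 1 matrix per library with barcodes not filtered to cells. They were made with a Chromium 3' kit per the labels and with Cell Ranger, named as 4 in the file headers and as 6.0 in the submitters' processing notes. The genome build, annotation and strand setting are not given in the sources used here. Gene positions came from Ensembl BDGP6.54 by identifier, which held 22016 of 22064 features, and are from that build only.

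Members, lists and class limits were chosen with earlier results of these data known. UMIs were summed per library, or per library and roX class, and tested with edgeR 4.0.16 in R 4.3.3 (TMM, filterByExpr, quasi-likelihood, two-sided, Benjamini-Hochberg). In the fit of classes the library was a block. DESeq2 1.42.0 was an alternative. Shares and split levels were compared with exact permutation tests over libraries. On simulated counts of 10869 genes, the genotype fit recovered 55.6% of 2-fold and 100% of 4-fold changes, with 7 false calls. On 9202 genes the class fit recovered all of both, with 10 false calls. Each simulation gave all genes the same assumed dispersion, not estimated from these data. The rates therefore do not carry over to genes with a wider spread. CPM is UMIs per 1000000 UMIs of the class or cells summed, scaled by TMM factors in edgeR comparisons.

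Cells were barcodes over a library's minimum (500 UMIs, raised where 0.1 of the 99th percentile among its 10000 deepest barcodes was larger), with at most 20% mitochondrial UMIs and without the top doublet scores, 0.8% per 1000 called cells. Clusters came from Leiden clustering (leidenalg 0.10.2) of 40 components of 2000 variable genes without the 7 members, and were named from fixed markers with score limits set after the scores were seen. A cluster with Kenyon scores but DAT among its leading genes stayed with other neuron-like cells. Genes named between the roX classes are the 10 largest changes each way with an adjusted p under 0.05, at least 5 CPM and the same sign in 6 libraries. Alternatives covered scaling, tool, filter, depth, doublets, class limits, cell class and each library left out. No sequence is shown.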

Additional observations from a re-analysis of the deposited data

Results flagged for a closer look

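The genotype effect on asRNA:CR44429, an X-linked antisense RNA gene, differed between roX-high and roX-low barcodes by 1.02 on the log2 scale (interaction in edgeR, SE 0.09, adjusted p = 0.0466 over 9573 features). In controls it was at 99.5, 62.5 and 69.8 CPM in roX-high and 139, 83.4 and 96.0 CPM in roX-low barcodes, lower in roX-high barcodes in 3 of 3 libraries. In knock-in replicates 1 to 3 it was at 46.9, 42.5 and 1.16 CPM in roX-high and 33.8, 27 and 0.518 CPM in roX-low barcodes, higher in 3 of 3. Knock-in replicate 3 was close to 0 in both classes. The call was lost without control replicate 3 (adjusted p = 0.164) and without any single knock-in library (adjusted p = 0.347, 0.489 and 0.0874 for replicates 1 to 3), with log2 values of 0.96 to 1.14. The RNA lies antisense to gce, and the strand setting of the counts is not given in the sources used here.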

How the results depend on the processing

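The difference in the share of roX-high barcodes ran from -4.49 to 9.9 percentage points over the libraries left out and from -2.04 to 3.32 points over the other alternatives, within the spread between libraries. Leaving out a library moved the X-linked share difference between -1.52 and -1.22 points, the roX2 difference between 6.25 and 6.76 and the roX1 difference between 2.33 and 2.63 on the log2 scale, each at the smallest exact p that 5 pairs allow. No other alternative ended these calls.

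Features called between roX classes numbered 258, against 476 by DESeq2, 480 without the filter, 33 at a minimum of 4000 UMIs, 388 at limits of 0.5% and 0.05%, 518 after thinning, 480 in neuron-like cells and 89 to 425 with a library left out. Between genotypes 24 were called, against 336 by DESeq2 (89 higher, 247 lower), 38 in neuron-like cells and 0 to 38 with a library left out. With replicate numbers as a block the count was 0 in edgeR, with 1160 features at an unadjusted p under 0.05. The numbers were not taken as pairs, because nothing in the labels says that equal numbers share a day or batch. Deviations of same-numbered libraries correlated at 0.11, -0.03 and 0.22, and those of the other pairings at -0.2 to 0.14. With 3 libraries per group these values cannot settle whether the numbers are pairs. For the interaction 1 was called, against 10 by DESeq2, 36 without the filter and 0 to 8 with a library left out. The causes were not tested.

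Of the uncalled members, the roX1 genotype difference ran from -0.30 (without control replicate 1) to 0.32 (without control replicate 2) with a library left out and turned to 0.10 with the replicate block. That of roX2 ran from -0.22 (without control replicate 1) to 0.34 (without control replicate 2), was -0.20 without knock-in replicate 2 and turned to -0.01 in neuron-like cells. That of mle turned to -0.0005 without control replicate 1, -0.01 in called cells and -0.04 in neuron-like cells, and that of mof to -0.05 without control replicate 3, against 0.16 without control replicate 1. The class difference of msl-3 turned to 0.01 without the filter and after thinning, 0.08 without control replicate 1 and at 4000 UMIs, 0.03 without control replicate 3 (-0.06 without control replicate 2), 0.07 with doublets removed and in neuron-like cells, and 0.06 at the wider limits. CG5080 turned to 0.01 in neuron-like cells. Of 330 values of the 24 named genes (msl-2, Sxl, dsx and fru included), 278 kept direction and call and 51 lost the call. Depth limits the protein members, above all msl-3 and mof.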

Other observations

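Among X-linked features with a mean of at least 20 CPM, 29 passed as higher and 90 as lower of 805 tested, with a median log2 difference of -0.053. On 2L, 2R, 3L and 3R the counts were 26 and 18 of 3548, with a median of 0.018. Between genotypes 1 of 805 X-linked features at that level passed, with a median of 0.077.

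Photoreceptor markers were higher in roX-high barcodes in 6 of 6 libraries as a sum, at 579 to 836 CPM against 439 to 799 CPM. Most of the sum was the X-linked norpA, a phospholipase of phototransduction, at 638 against 505 CPM (log2 difference 0.35, edgeR adjusted p = 0.0273), which was also at 582 CPM in neuron-like cells. The other 6 tested did not pass, and Arr2 and Rh2 were lower in 5 and ninaE in 4 of 6 libraries. Hml, a hemocyte gene, was lower at -2.47 (edgeR adjusted p = 0.0116). Despite its value, Hml was not among the largest decreases named above. It thus missed the naming rule's minimum of 5 CPM or its same sign in 6 of 6 libraries.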
